A study of Homo sapiens with 36 samples.

Results

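The unfolded protein response and the amino acid stress response were followed through 41 genes chosen by name, of which 40 had a probe on the array. HERPUD1, a membrane protein of endoplasmic reticulum (ER) associated degradation, had no probe in the annotation used here. The 40 measured genes were read by 51 of 47320 probes and stood among 20045 genes with a symbol. No value measured on these arrays entered the rule that names them, although the members were chosen with earlier results of these data known.

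Unfolded proteins in the ER activate 3 sensors in its membrane. IRE1 (ERN1) splices XBP1 mRNA, PERK (EIF2AK3) phosphorylates the translation factor eIF2, and ATF6 is cut to release a transcription factor, which together raise chaperones and degradation factors. Phosphorylation of eIF2 by PERK, or by other kinases when amino acids run short, slows protein synthesis while favouring translation of ATF4, a transcription factor that induces amino acid synthesis, transport and tRNA charging genes. Neuroblastoma, a childhood tumour of the sympathetic nervous system, is known for high demand on protein and amino acid synthesis where MYCN is amplified.

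The arrays addressed which transcripts change when the histone deacetylase HDAC11 is depleted in neuroblastoma cells. BE(2)-C and IMR-32, established MYCN-amplified neuroblastoma lines, were transfected with HDAC11 siRNA no. 1, with HDAC11 siRNA no. 2 or with 1 negative control siRNA, and total RNA was taken 42, 48 and 54 h later. Each line, siRNA and time point had 2 replicate arrays, so that each siRNA in each line was covered by 6 arrays and the whole set by 36. Both HDAC11 siRNAs were set against the same control arrays within a line, and each is a single sequence. The labels call replicates biological without naming separate cultures or days, so p-values measure only the spread between these samples.

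The targeted gene could not be followed: HDAC11 was above background on 0 of 18 BE(2)-C arrays and on 2 of 6 control arrays of IMR-32, and its fold changes against control cells did not pass the test (log2 values in BE(2)-C -0.07 and -0.03, in IMR-32 -0.09 and -0.08, siRNA no. 1 before no. 2). Between 17095 and 19783 probes were above background per array, and replicate arrays correlated at r = 0.985 to 0.994 over all probes. The low end was the BE(2)-C control pair at 54 h, which enters both BE(2)-C comparisons with control, and every other pair was at 0.990 or above. Each of the 36 arrays had its highest correlation with another of the same line and siRNA. The 9 neuroblast markers measured were above background on every array, except DBH on 11 of 18 IMR-32 arrays. Markers of other cell types were mixed. SNAI2 and VIM (mesenchymal) were above background on all 36 arrays, LUM on 18 BE(2)-C and 6 IMR-32 arrays, COL1A1 on 3 and 8, COL1A2 on 0 and 5, PRRX1 on 1 and 0 and FN1 on 0. Among blood and epithelial markers, CD14 was above background on 18 and 13 arrays, EPCAM on 8 and 10, HBB on 3 and 4 and KRT18 on 1 and 1, PTPRC and HBA1 on 1 array each, and CD3E, KRT8 and CDH1 on 0. Their part in the results was not tested. Of the 40 genes, 31 were above background on all 36 arrays, while CHAC1, SLC7A11, ERN1, SEL1L and SESN2 were below it on most arrays of both lines. In these bulk samples, fewer cells expressing a gene and less RNA per cell cannot be told apart.

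With each HDAC11 siRNA, some members of both pathways were called higher and others lower than in control cells. With siRNA no. 1 in BE(2)-C cells, 9 of the 40 genes were higher and 11 lower than in control cells, where 12.9% of all genes were called higher and 11.5% lower (limma, Benjamini-Hochberg adjusted p below 0.05, contrast averaged over the 3 time points). In the same line, siRNA no. 2 gave 10 higher and 7 lower, against 6.39% and 7.54% of all genes. With arrays scaled to a common median in place of quantile normalization, this balance turned round, to 5 higher and 10 lower. The calls of all genes moved the same way, with 25.2% of them higher in place of 45.9%. In IMR-32, siRNA no. 1 gave 5 higher and 15 lower (13.3% and 10.9% of all genes), and siRNA no. 2 gave 6 higher and 8 lower (6.02% and 7.28%). The median log2 fold change over the 40 genes was -0.00, 0.00, -0.04 and -0.06 in that order, beside 0.00, -0.00, 0.01 and 0.00 over all genes.

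Most of these genes are well expressed, and calls are commoner among expressed genes. Of the genes above background on at least 50% of the arrays in a fit, the share called in either direction was 57.1% of members against 46.1% of all such genes for siRNA no. 1 in BE(2)-C, and 48.6% against 27% for siRNA no. 2. In IMR-32 it was 55.9% against 42.4% for siRNA no. 1 and 41.2% against 24.2% for siRNA no. 2. The 6 siRNA arrays and the 6 control arrays did not overlap for 5 genes higher and 3 lower in BE(2)-C with siRNA no. 1, where 7.09% and 6.58% of all genes were so separated. They did not overlap for 3 higher and 5 lower in BE(2)-C with siRNA no. 2 (2.79% and 3.69%), for 2 higher and 12 lower in IMR-32 with siRNA no. 1 (8.22% and 7.37%), and for 3 higher and 7 lower in IMR-32 with siRNA no. 2 (3.57% and 4.53%).

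**Figure D1:**
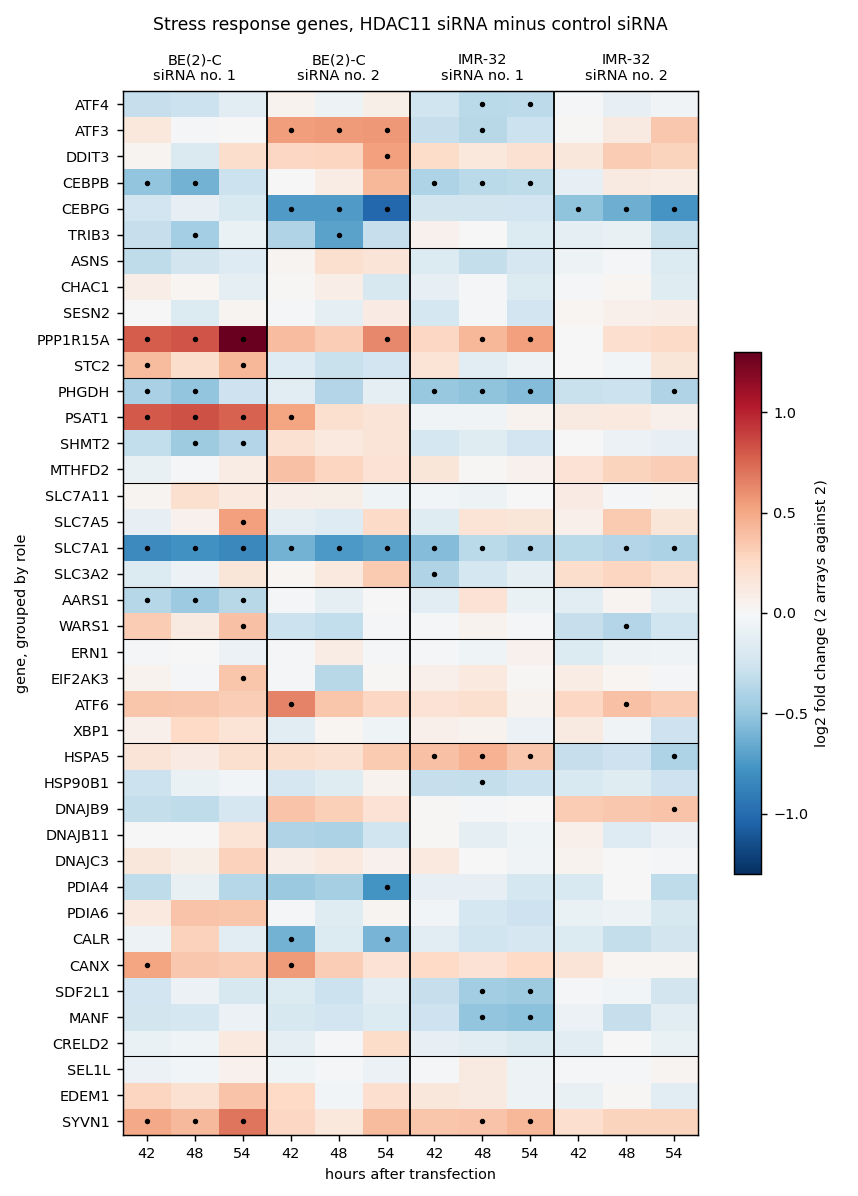
Log2 fold change against control siRNA (colour scale) for 40 genes of the unfolded protein and amino acid stress response (one per line, grouped by role) at 42, 48 and 54 h, for each HDAC11 siRNA in each cell line, with 2 arrays per group and time. Dots mark adjusted p below 0.05 at that time point; SLC7A1 is lower in all 12 cells of its row, while HSPA5 in IMR-32 is higher with siRNA no. 1 and lower with siRNA no. 2.

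The siRNAs of a line share their control arrays, so like calls with both are not independent of each other. Over the 4 comparisons, SYVN1 was called higher each time and CEBPG and SLC7A1 lower each time. ATF6, CANX, PPP1R15A and DDIT3 were called higher in 3 of the 4 comparisons, and CALR and PHGDH lower in 3. The paper asked of its hits regulation at 2 or more time points, and under that rule only SLC7A1 kept every call. It ended the calls of CEBPG with siRNA no. 1 and of SYVN1 with siRNA no. 2 in both lines. Every call of ATF6, CANX and DDIT3 was lost too, as were CALR in IMR-32 and, with siRNA no. 2, PPP1R15A in BE(2)-C and PHGDH in IMR-32. Not called in any were XBP1, EIF2AK3, ERN1, SLC7A5, DNAJC3, CRELD2, SEL1L, CHAC1 and SLC7A11. The share of all genes called alike in 3 or 4 comparisons was not counted, so these patterns have no background beside them.

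The promoters of 6 members are shown because they carry the 2 elements through which these pathways act, the C/EBP-ATF element bound by ATF4 dimers and the ER stress element bound by ATF6 with NF-Y. SLC7A1 and CEBPG were lower in all 4 comparisons and ASNS is the textbook target of the first element, while HSPA5, CANX and CALR carry the second and moved differently. Each runs from 250 bases before to 20 bases after the start in RefSeq (GRCh38.p14), read 5′ to 3′ on the gene's strand, with the fixed letters of the element in capitals. The windows are chr13:29595669-29595938 (minus) for SLC7A1, chr19:33373863-33374132 (plus) for CEBPG, chr7:97872389-97872658 (minus) for ASNS, chr9:125241324-125241593 (minus) for HSPA5, chr5:179698679-179698948 (plus) for CANX and chr19:12938359-12938628 (plus) for CALR.
SLC7A1: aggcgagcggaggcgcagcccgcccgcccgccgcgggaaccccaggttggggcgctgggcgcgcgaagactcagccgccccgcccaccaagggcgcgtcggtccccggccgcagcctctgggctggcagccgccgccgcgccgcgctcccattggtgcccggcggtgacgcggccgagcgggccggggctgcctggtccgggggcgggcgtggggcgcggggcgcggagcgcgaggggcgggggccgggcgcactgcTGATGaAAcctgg
CEBPG: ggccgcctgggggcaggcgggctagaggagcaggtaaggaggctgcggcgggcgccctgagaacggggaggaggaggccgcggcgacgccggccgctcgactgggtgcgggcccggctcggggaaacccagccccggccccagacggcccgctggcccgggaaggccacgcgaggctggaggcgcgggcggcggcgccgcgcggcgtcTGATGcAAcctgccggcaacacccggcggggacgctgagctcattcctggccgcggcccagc
ASNS: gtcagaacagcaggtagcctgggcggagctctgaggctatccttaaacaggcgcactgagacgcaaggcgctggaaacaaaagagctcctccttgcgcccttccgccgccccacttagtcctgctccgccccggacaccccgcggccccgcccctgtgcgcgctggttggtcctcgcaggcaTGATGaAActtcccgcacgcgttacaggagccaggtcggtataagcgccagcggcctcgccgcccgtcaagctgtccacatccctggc
HSPA5: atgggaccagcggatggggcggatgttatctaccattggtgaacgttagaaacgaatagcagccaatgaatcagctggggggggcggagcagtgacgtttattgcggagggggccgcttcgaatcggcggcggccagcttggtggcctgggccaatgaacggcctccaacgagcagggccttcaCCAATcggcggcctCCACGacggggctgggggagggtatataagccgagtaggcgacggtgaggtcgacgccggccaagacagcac
CANX: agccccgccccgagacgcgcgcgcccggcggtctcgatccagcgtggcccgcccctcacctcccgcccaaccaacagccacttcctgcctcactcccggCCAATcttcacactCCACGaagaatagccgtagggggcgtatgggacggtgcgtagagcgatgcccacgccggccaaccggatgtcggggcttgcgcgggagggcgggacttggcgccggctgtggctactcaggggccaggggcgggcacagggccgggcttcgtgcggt
CALR: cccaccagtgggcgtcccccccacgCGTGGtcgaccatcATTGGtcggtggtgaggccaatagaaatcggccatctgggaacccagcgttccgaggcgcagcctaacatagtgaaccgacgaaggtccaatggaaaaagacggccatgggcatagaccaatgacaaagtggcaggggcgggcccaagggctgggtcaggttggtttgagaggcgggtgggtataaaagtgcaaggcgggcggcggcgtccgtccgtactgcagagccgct

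The C/EBP-ATF element, searched as TGATGNAA on both strands, lay 42 bases before the start in CEBPG, 68 before it in ASNS and 7 after it in SLC7A1. By window, it was found in 1270 of 35116 promoter windows of 300 bases (3.62%). By gene, with any window of a gene counted, which is another measure, it was found in 8 of the 39 members with a window. The 7 measured ones were AARS1, ASNS, ATF3, CEBPG, CHAC1, SLC3A2 and SLC7A1. Of these 7, siRNA no. 1 gave 0 calls higher and 4 lower in BE(2)-C (9 and 11 of all 40 members, 12.9% and 11.5% of all genes). In IMR-32 it gave 0 higher and 5 lower (5 and 15 members, 13.3% and 10.9% of all genes). With siRNA no. 2 there were 1 higher and 2 lower in each line. The members then gave 10 and 7 in BE(2)-C (6.39% and 7.54% of all genes) and 6 and 8 in IMR-32 (6.02% and 7.28%).

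The ER stress element is CCAAT and CCACG with 9 bases of any kind between them, on either strand. In the windows shown it lay 66 bases before the start in HSPA5, 151 in CANX and 225, on the minus strand, in CALR. Other windows of CANX held it 9 and 189 bases before their start, and members are again counted by gene. Only 27 windows held it (0.0769%), among them those of 7 members, HSPA5, CANX, CALR, HSP90B1, PDIA6, CRELD2 and XBP1. With siRNA no. 1, these 7 gave 2 calls higher and 0 lower in BE(2)-C (12.9% and 11.5% of all genes). In IMR-32 they gave 2 higher and 3 lower (13.3% and 10.9%). With siRNA no. 2 they gave 2 higher and 1 lower in BE(2)-C (6.39% and 7.54%) and 0 higher and 3 lower in IMR-32 (6.02% and 7.28%). The related ER stress element II, ATTGG and CCACG with 1 base between them, which shares CCACG and holds CCAAT on the other strand, was in 19 windows (0.0541%), those of HERPUD1 and SDF2L1 among them, and the unfolded protein response element TGACGTGG was in 256 (0.729%) and in no member's. A match to these letters is a description of the sequence and not evidence of binding.

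Of the 6 transcription factors of the response, siRNA no. 1 gave 4 lower and 0 higher in BE(2)-C, beside 11.5% and 12.9% of all genes. In IMR-32 it gave 4 lower and 1 higher (10.9% and 13.3% of all genes). For siRNA no. 2 there were 2 lower and 2 higher in BE(2)-C (7.54% and 6.39% of all genes). In IMR-32 there were 1 lower and 1 higher (7.28% and 6.02%). CEBPG, which pairs with ATF4 on its target genes, was the member that siRNA no. 2 lowered most in both lines. In BE(2)-C, the lowest, median and highest of 6 arrays were 9.09, 9.26 and 9.44 (log2 signal, here and below) with siRNA no. 2 and 9.72, 9.94 and 10.03 for siRNA no. 1, against 10.04, 10.07 and 10.24 in control cells. Every array of either siRNA lay below every control array. The log2 fold change was -0.83 ± 0.07 with siRNA no. 2 (SE, n = 6 arrays against 6, as for all fold changes below, limma adjusted p = 1.48e-08) and -0.19 ± 0.06 with siRNA no. 1 (limma adjusted p = 0.0439). In IMR-32, CEBPG read 9.75, 9.90 and 10.04 with siRNA no. 2 and 10.22, 10.30 and 10.37 for siRNA no. 1, against 10.43, 10.55 and 10.64 in control cells, again with no overlap. The log2 fold changes there were -0.64 ± 0.06 (limma adjusted p = 8.46e-10) and -0.24 ± 0.06 (limma adjusted p = 0.00253). The call in BE(2)-C with siRNA no. 1 was lost on leaving out any of 10 of the 12 arrays, with adjusted p between 0.0568 and 0.158.

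ATF4, the central factor, was modestly lower with siRNA no. 1. Its brightest probe read 12.97, 13.06 and 13.11 in BE(2)-C with siRNA no. 1, against 13.05, 13.29 and 13.47 in control cells (log2 fold change -0.24 ± 0.07, limma adjusted p = 0.0108). In IMR-32 it read 12.85, 12.96 and 13.06 with siRNA no. 1, against 13.10, 13.30 and 13.33 in control cells (-0.32 ± 0.06, limma adjusted p = 6.85e-05). The groups overlapped in BE(2)-C and were apart in IMR-32, and with siRNA no. 2 the log2 fold changes of 0.02 and -0.06 did not pass the test. The 3 ATF4 probes disagreed: a second one gave log2 fold changes of -0.36 in BE(2)-C and -0.49 in IMR-32 with siRNA no. 1, and the dimmest gave 0.10 and 0.01, neither of which passed. ATF4 is controlled mainly at translation, which arrays do not measure.

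ATF3, a stress-induced repressor, and DDIT3 (CHOP), a factor linked to death under lasting ER stress, were both higher in BE(2)-C with siRNA no. 2. ATF3 read 8.27, 8.37 and 8.46 in BE(2)-C with siRNA no. 2, against 7.65, 7.79 and 7.95 in control cells, a log2 fold change of 0.55 ± 0.07 (limma adjusted p = 5.89e-06) with no overlap. A pair of other ATF3 probes, above background on 0 of 36 arrays, gave 0.03 (limma adjusted p = 0.906) and -0.02 there. The call is lost where the probe of largest F replaces the brightest. That setting ranked probes by the smaller F of the 2 siRNAs in a line, and so took the probe giving 0.03. With siRNA no. 1, its log2 fold change was 0.04 in BE(2)-C, which did not pass, and -0.32 ± 0.06 in IMR-32 (limma adjusted p = 0.000104). DDIT3 read 8.39, 8.48 and 8.65 in BE(2)-C with siRNA no. 2, above all control arrays at 7.91, 8.15 and 8.32 (0.36 ± 0.07, limma adjusted p = 0.00138). In IMR-32, DDIT3 was higher with siRNA no. 1 (0.19 ± 0.06, limma adjusted p = 0.0183) and with siRNA no. 2 (0.25 ± 0.06, limma adjusted p = 0.00302), with overlap in both cases. The first of these was lost on leaving out any of 5 arrays (adjusted p 0.051 to 0.0883).

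CEBPB, a partner of DDIT3 and ATF4, was lower in BE(2)-C with siRNA no. 1 (-0.47 ± 0.07, limma adjusted p = 4.66e-05) and in IMR-32 (-0.36 ± 0.06, limma adjusted p = 7.76e-06). TRIB3, a pseudokinase that ATF4 and DDIT3 induce and that restrains them, was lower in BE(2)-C with siRNA no. 1 (-0.28 ± 0.07, limma adjusted p = 0.00337) and with siRNA no. 2 (-0.46 ± 0.07, limma adjusted p = 0.000118). In IMR-32, the log2 fold changes of TRIB3 were -0.04 and -0.17 and did not pass.

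Among the effectors, PPP1R15A (GADD34), the phosphatase subunit that removes the phosphate from eIF2 and so restarts translation, rose most. It read in BE(2)-C 9.19, 9.37 and 9.39 with siRNA no. 1 and 8.65, 8.79 and 9.02 for siRNA no. 2, against 7.94, 8.43 and 8.67 in control cells. All siRNA no. 1 arrays lay above all control arrays, and those of siRNA no. 2 overlapped them slightly. The log2 fold changes were 0.96 ± 0.07 (limma adjusted p = 2.48e-10) and 0.45 ± 0.07 (limma adjusted p = 0.000129). In IMR-32, PPP1R15A read 9.00, 9.27 and 9.37 with siRNA no. 1, against 8.76, 8.78 and 9.01 in control cells, a log2 fold change of 0.41 ± 0.06 (limma adjusted p = 7.26e-06), and siRNA no. 2 gave 0.15, which did not pass.

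STC2, a secreted glycoprotein induced by ER stress, was above background in BE(2)-C and on 1 of 18 IMR-32 arrays. Its BE(2)-C values were 9.55, 9.80 and 9.97 with siRNA no. 1 and 9.07, 9.23 and 9.30 for siRNA no. 2, against 9.31, 9.44 and 9.48 in control cells. The siRNAs thus lay on opposite sides of the control arrays, at 0.36 ± 0.07 (limma adjusted p = 0.000378) and -0.23 ± 0.07 (limma adjusted p = 0.0245). The call with siRNA no. 2 was lost on leaving out any of 7 arrays (adjusted p 0.0501 to 0.0985). ASNS, asparagine synthetase, was lower in BE(2)-C with siRNA no. 1 (-0.25 ± 0.07, limma adjusted p = 0.0101) and in IMR-32 (-0.24 ± 0.06, limma adjusted p = 0.00449), and its second probe gave the same direction. The BE(2)-C call of ASNS was lost without the second 42 h array of siRNA no. 1 (-0.22, limma adjusted p = 0.0506). SESN2, a leucine sensor, was above background on 0 of 6 IMR-32 arrays with siRNA no. 1 and on 3 of 6 control arrays, at least 1.10-fold lower.

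The serine and one-carbon enzymes split. PHGDH, which opens serine synthesis, read in IMR-32 cells 12.25, 12.39 and 12.57 with siRNA no. 1 and 12.51, 12.56 and 12.70 for siRNA no. 2, against 12.81, 12.90 and 13.05 in control cells. Neither siRNA overlapped the control arrays, at -0.53 ± 0.06 (limma adjusted p = 1.43e-08) and -0.32 ± 0.06 (limma adjusted p = 0.000134). In BE(2)-C, PHGDH was lower with siRNA no. 1 (-0.40 ± 0.07, limma adjusted p = 0.00012), and the -0.22 of siRNA no. 2 did not pass. PSAT1, the next enzyme of the same route, rose in BE(2)-C instead. It read 11.35, 11.36 and 11.44 with siRNA no. 1 and 10.76, 10.80 and 11.09 for siRNA no. 2, against 10.46, 10.57 and 10.80 in control cells, where the siRNA no. 1 arrays stood clear of all others. The log2 fold changes were 0.80 ± 0.07 (limma adjusted p = 3.82e-09) and 0.29 ± 0.07 (limma adjusted p = 0.00605), and in IMR-32 they were -0.02 and 0.10, neither past the test. A second PSAT1 probe was above background on 0 of 36 arrays and passed in none of these.

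SHMT2, which moves the serine carbon into mitochondrial folate, was lower in BE(2)-C with siRNA no. 1 (-0.39 ± 0.07, limma adjusted p = 0.000111) and in IMR-32 (-0.21 ± 0.06, limma adjusted p = 0.00589), without overlap in either. MTHFD2, which follows it, was higher in BE(2)-C with siRNA no. 2 (0.28 ± 0.07, limma adjusted p = 0.00748) and in IMR-32 (0.27 ± 0.06, limma adjusted p = 0.00283). With siRNA no. 1 the log2 fold change of MTHFD2 was -0.01 and 0.08 in the same lines and did not pass.

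Of the 4 amino acid transporters, SLC7A1 fell in every comparison. SLC7A1 (CAT1) imports arginine and lysine and is known to be induced when amino acids are scarce. In BE(2)-C it read 9.58, 9.81 and 9.94 with siRNA no. 1 and 9.77, 9.89 and 10.14 for siRNA no. 2, against 10.51, 10.60 and 10.70 in control cells. In IMR-32 it read 9.55, 9.75 and 9.86 with siRNA no. 1 and 9.67, 9.79 and 10.00 for siRNA no. 2, against 10.04, 10.21 and 10.28 in control cells. No siRNA array reached a control array in either line. The log2 fold changes were -0.82 ± 0.06 and -0.68 ± 0.06 in BE(2)-C (limma adjusted p = 9.83e-10 and 1.09e-07) and -0.44 ± 0.06 and -0.38 ± 0.06 in IMR-32 (limma adjusted p = 1.04e-06 and 1.52e-05), for siRNA no. 1 and no. 2 in turn.

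SLC3A2, the heavy chain shared by several transporters, was lower in IMR-32 with siRNA no. 1 (-0.25 ± 0.06, limma adjusted p = 0.0041) and higher there with siRNA no. 2 (0.23 ± 0.06, limma adjusted p = 0.0115). The second of these was lost on leaving out any of 3 arrays (adjusted p 0.0588 to 0.0631), and a second SLC3A2 probe passed in none of the 4 comparisons. SLC7A5 (LAT1), its partner for large neutral amino acids, gave log2 fold changes from -0.01 to 0.19, and none passed. SLC7A11, the cystine transporter subunit, was not above background on any array.

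The tRNA synthetases moved in separate directions. AARS1, which charges alanine tRNA, was lower in BE(2)-C with siRNA no. 1, at 11.57, 11.72 and 12.03 against 12.01, 12.14 and 12.37 in control cells (-0.40 ± 0.06, limma adjusted p = 3.39e-05), with the lowest control array inside the siRNA range. In IMR-32 its log2 fold changes were -0.01 and -0.08 and did not pass. WARS1, which charges tryptophan tRNA, was higher in BE(2)-C with siRNA no. 1 (0.28 ± 0.06, limma adjusted p = 0.00169) and lower in IMR-32 with siRNA no. 2 (-0.31 ± 0.06, limma adjusted p = 0.000238). A second WARS1 probe, above background on all 36 arrays, gave 0.12 in BE(2)-C with siRNA no. 1 and did not pass (limma adjusted p = 0.253). This probe passed as lower with siRNA no. 2 in both lines (-0.36 in BE(2)-C, -0.31 in IMR-32), where the first gave -0.21 in BE(2)-C without passing.

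Of the sensors, only ATF6 passed against control cells. BE(2)-C arrays read 9.72, 9.79 and 10.07 with siRNA no. 1 and 9.68, 9.79 and 10.51 for siRNA no. 2, against 9.29, 9.53 and 9.76 in control cells, with some overlap. The log2 fold changes were 0.35 ± 0.07 (limma adjusted p = 0.000561) and 0.42 ± 0.08 (limma adjusted p = 0.000764). In IMR-32, siRNA no. 2 gave 0.32 ± 0.06 (limma adjusted p = 0.000185), with all arrays above the control arrays, and the 0.15 of siRNA no. 1 did not pass. XBP1, at median log2 signals of 10.57 to 11.53, gave log2 fold changes from -0.07 to 0.17 and EIF2AK3 from -0.12 to 0.12, and none passed. Set against siRNA no. 2 directly, siRNA no. 1 gave higher XBP1 in BE(2)-C, by 0.23 ± 0.06 without overlap (limma adjusted p = 0.00879), and higher EIF2AK3, by 0.25 ± 0.08 (limma adjusted p = 0.0265), which was lost on leaving out any of 7 arrays. ERN1 was not above background on any array, and these probes do not separate spliced from unspliced XBP1.

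Among the 12 ER chaperones and folding enzymes, siRNA no. 1 gave 2 higher against 2 lower in BE(2)-C (12.9% and 11.5% of all genes). In IMR-32 it gave 2 against 5 (13.3% and 10.9%). For siRNA no. 2 these were 3 against 3 in BE(2)-C (6.39% and 7.54%) and 1 against 4 in IMR-32 (6.02% and 7.28%). HSPA5 (BiP), the Hsp70 of the ER lumen and the usual readout of the unfolded protein response, passed in both directions. In IMR-32 it read 9.71, 9.74 and 9.86 with siRNA no. 1 and 8.96, 9.03 and 9.18 for siRNA no. 2, against 9.33, 9.35 and 9.50 in control cells. The 3 groups of arrays did not overlap, at 0.40 ± 0.06 (limma adjusted p = 1.32e-06) and -0.33 ± 0.06 (limma adjusted p = 0.00018). In BE(2)-C, HSPA5 read 9.84, 9.85 and 10.03 with siRNA no. 1 and 9.85, 9.97 and 10.16 for siRNA no. 2, against 9.51, 9.76 and 9.90 in control cells. Only siRNA no. 2 passed there (0.26 ± 0.07, limma adjusted p = 0.0288), a call lost on leaving out any of 6 arrays (adjusted p 0.0805 to 0.122) and under median scaling (limma adjusted p = 0.173).

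CANX and CALR, the membrane-bound and the soluble lectin chaperone of glycoprotein folding, differed. CANX was higher in BE(2)-C, reading 9.36, 9.51 and 9.60 with siRNA no. 1 and 9.34, 9.43 and 9.62 for siRNA no. 2, against 9.02, 9.08 and 9.26 in control cells. Neither siRNA overlapped control, at 0.40 ± 0.06 (limma adjusted p = 5.9e-05) and 0.35 ± 0.06 (limma adjusted p = 0.000595), and siRNA no. 1 gave 0.24 ± 0.06 in IMR-32 (limma adjusted p = 0.0049). CALR was lower with siRNA no. 2 in both lines, at 10.09, 10.50 and 10.70 against 10.80, 10.92 and 11.10 in control BE(2)-C cells and at 9.83, 9.96 and 10.07 against 10.14, 10.19 and 10.27 in control IMR-32 cells. The groups were apart in both, with log2 fold changes of -0.47 ± 0.07 (limma adjusted p = 0.0001) and -0.24 ± 0.06 (limma adjusted p = 0.00386). With siRNA no. 1, CALR gave 0.03 in BE(2)-C, not called, and -0.21 ± 0.06 in IMR-32 (limma adjusted p = 0.0185), a call lost on leaving out any of 6 arrays (adjusted p 0.0524 to 0.104).

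HSP90B1 (GRP94), the Hsp90 of the ER, was lower in IMR-32 with siRNA no. 1 (-0.30 ± 0.05, limma adjusted p = 9.63e-05) and with siRNA no. 2 (-0.21 ± 0.06, limma adjusted p = 0.0147), without overlap, and the second of these was lost without either of 2 arrays (adjusted p 0.0508 and 0.059). MANF, a secreted ER stress factor with chaperone-like activity, was lower there with siRNA no. 1 (-0.44 ± 0.06, limma adjusted p = 2.49e-07), and the -0.18 of siRNA no. 2 passed only just (limma adjusted p = 0.0476) and was lost on leaving out any of 11 of 12 arrays (adjusted p 0.0575 to 0.164). SDF2L1, a partner of DNAJB11, was lower in IMR-32 with siRNA no. 1 (-0.40 ± 0.06, limma adjusted p = 2.04e-06). PDIA4, a disulfide isomerase, was lower in BE(2)-C with siRNA no. 1 (-0.26 ± 0.07, limma adjusted p = 0.007) and siRNA no. 2 (-0.56 ± 0.07, limma adjusted p = 1.44e-05). DNAJB9 (ERdj4), an HSPA5 co-chaperone that restrains IRE1, was higher in BE(2)-C with siRNA no. 2 (0.29 ± 0.07, limma adjusted p = 0.00472) and IMR-32 (0.35 ± 0.06, limma adjusted p = 9.04e-05) and lower in BE(2)-C with siRNA no. 1 (-0.28 ± 0.08, limma adjusted p = 0.0195). The last of these was lost on leaving out any of 5 arrays (adjusted p 0.0653 to 0.12).

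SYVN1 (HRD1), the ubiquitin ligase at the core of ER-associated degradation, was the member called higher each time. Its BE(2)-C arrays read 8.82, 8.91 and 8.99 with siRNA no. 1 and 8.48, 8.61 and 8.85 for siRNA no. 2, against 8.19, 8.37 and 8.60 in control cells. In IMR-32 it read 9.12, 9.33 and 9.53 with siRNA no. 1 and 9.13, 9.19 and 9.41 for siRNA no. 2, against 8.82, 8.96 and 9.02 in control cells. The groups overlapped for siRNA no. 2 in BE(2)-C and were apart in the other comparisons. The log2 fold changes were 0.54 ± 0.07 and 0.27 ± 0.07 in BE(2)-C (limma adjusted p = 1.25e-06 and 0.0201) and 0.39 ± 0.07 and 0.27 ± 0.06 in IMR-32 (limma adjusted p = 2.73e-05 and 0.00266), siRNA no. 1 before no. 2. The call of siRNA no. 2 in BE(2)-C was lost on leaving out any of 6 arrays (adjusted p 0.0511 to 0.104). Both calls with siRNA no. 2 were lost when arrays were scaled to a common median instead of quantile normalized, with SYVN1 at 0.16 in BE(2)-C (limma adjusted p = 0.377) and 0.21 in IMR-32 (limma adjusted p = 0.075), and a second, dim SYVN1 probe above background on 5 of 36 arrays passed in none. SEL1L, the adaptor of SYVN1, was near background throughout.

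**Figure D2:**
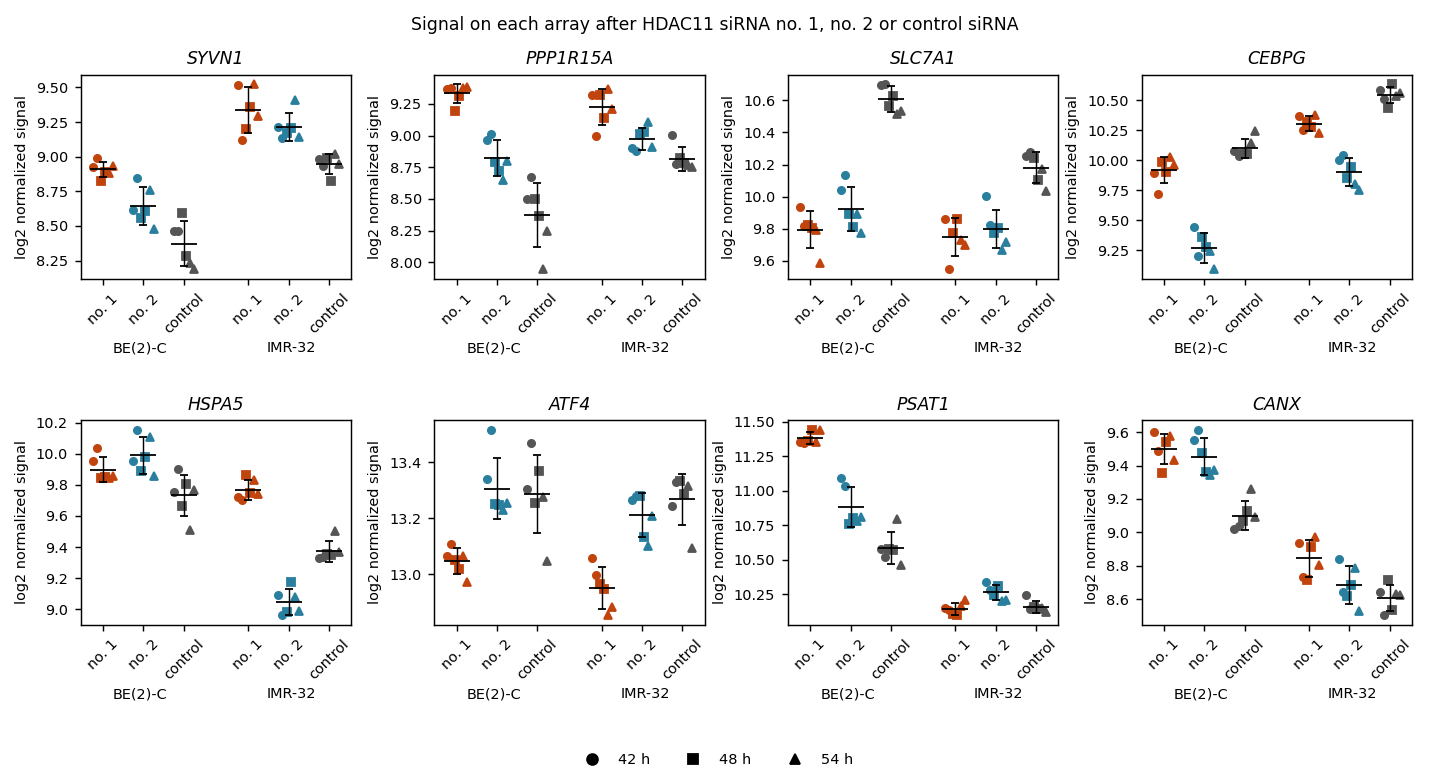
Log2 quantile-normalized signal (vertical axis) of SYVN1, PPP1R15A, SLC7A1, CEBPG, HSPA5, ATF4, PSAT1 and CANX on each array, by siRNA no. 1, siRNA no. 2 and control (horizontal axis) in BE(2)-C and then IMR-32; marker shapes give the time point, and bars give the mean ± SD of 6 arrays. SLC7A1 and CEBPG lie below control with both siRNAs in both lines, and HSPA5 in IMR-32 lies above control with siRNA no. 1 and below it with siRNA no. 2.

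A direct comparison of the siRNAs, which uses no control array, asked where the 2 sequences differed. In BE(2)-C, 13 of the 40 genes were higher with siRNA no. 1 than with siRNA no. 2 and 9 lower, beside 16.1% and 13.7% of all genes. In IMR-32, 4 were higher and 11 lower, beside 15.1% and 13.1%. Separation without overlap between the siRNAs was seen in BE(2)-C for 7 genes with siRNA no. 1 on top and 8 with it below (9.3% and 8.03% of all genes), and in IMR-32 for 3 and 6 (10.3% and 8.81%). CEBPG was higher with siRNA no. 1 in both lines, by 0.64 ± 0.06 in BE(2)-C (limma adjusted p = 8.47e-09) and 0.40 ± 0.06 in IMR-32 (limma adjusted p = 8.94e-07), that is, it was lowered less. STC2 (0.59 ± 0.07), PPP1R15A (0.51 ± 0.06) and PSAT1 (0.50 ± 0.06) followed in BE(2)-C, and HSPA5 led in IMR-32 with 0.72 ± 0.06 (limma adjusted p = 4.22e-12).

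On the other side, CEBPB was lower with siRNA no. 1 than with siRNA no. 2 by -0.64 ± 0.06 in BE(2)-C (limma adjusted p = 3.84e-09) and -0.39 ± 0.06 in IMR-32 (limma adjusted p = 1.84e-06). ATF3 gave -0.51 ± 0.06 in BE(2)-C and -0.48 ± 0.06 in IMR-32, and DNAJB9 gave -0.57 ± 0.08 and -0.34 ± 0.06, all past the threshold. ATF4 differed by -0.26 ± 0.06 in each line (limma adjusted p = 0.0018 in BE(2)-C and 0.000699 in IMR-32). SLC7A1 did not pass in either line, at -0.13 ± 0.06 (limma adjusted p = 0.18) and -0.05 ± 0.06 (limma adjusted p = 0.704), nor did CANX, at 0.05 ± 0.06 and 0.16 ± 0.06.

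**Figure D3:**
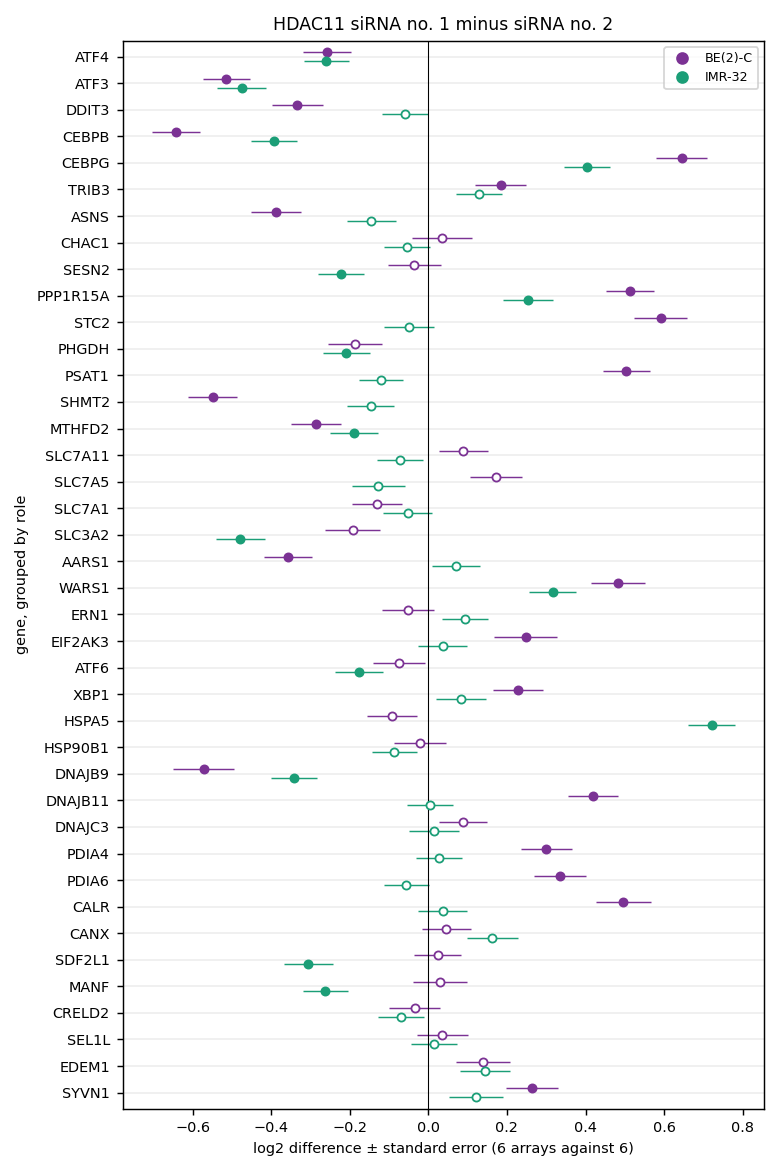
Difference in log2 signal between siRNA no. 1 and siRNA no. 2 (horizontal axis, ± SE, 6 arrays against 6) for each of 40 genes (vertical axis) in BE(2)-C (purple) and IMR-32 (green), with filled points for adjusted p below 0.05. CEBPG lies right of 0 and CEBPB, ATF3, DNAJB9 and ATF4 left of it in both lines, while HSPA5 is far right of 0 in IMR-32 only.

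The effect of an siRNA was also compared between the lines over all 36 arrays. For siRNA no. 1, the log2 fold change in BE(2)-C exceeded that in IMR-32 for 6 of the 40 genes and fell short of it for 2, beside 6.3% and 6.75% of all genes. The 6 were led by PSAT1, at 0.81 ± 0.08 (limma adjusted p = 1.07e-10), and PPP1R15A, at 0.56 ± 0.09 (limma adjusted p = 1.79e-05). For siRNA no. 2, it was higher for 2 genes and lower for 4, beside 2.34% and 2.54%. HSPA5 differed most, at 0.58 ± 0.09 (limma adjusted p = 1.23e-05), being higher than control in BE(2)-C and lower in IMR-32. SLC7A1 was lowered more in BE(2)-C by both siRNAs, by -0.38 ± 0.09 (limma adjusted p = 0.00164) and -0.30 ± 0.09 (limma adjusted p = 0.0387) relative to IMR-32, the second of which was lost on leaving out any of 14 of 36 arrays.

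Without HDAC11 siRNA, the lines themselves differed in most members. In control cells 17 of 40 genes were higher in BE(2)-C and 10 lower than in IMR-32, beside 18.9% and 20.8% of all genes, and the 6 arrays of each line did not overlap for 17 and 8 (13.4% and 15.5% of all genes). STC2 stood out at 9.31, 9.44 and 9.48 in BE(2)-C against 6.65, 6.85 and 7.08 in IMR-32, where it was above background on 0 of 6 arrays, and was at least 5.83-fold higher (limma adjusted p = 3.81e-19). AARS1 was higher in BE(2)-C by 1.00 ± 0.06 (log2, limma adjusted p = 1.72e-12), SLC7A5 by 0.99 ± 0.06 (limma adjusted p = 4.52e-12) and CEBPB by 0.96 ± 0.07 (limma adjusted p = 1.23e-10). Of the 12 chaperones and folding enzymes 7 were higher in BE(2)-C, CALR (0.74 ± 0.06) and PDIA4 (0.60 ± 0.07) among them, and 1, MANF, was lower.

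The mitochondrial one-carbon enzymes ran the other way. MTHFD2 was lower in BE(2)-C by -1.23 ± 0.06 (limma adjusted p = 8.78e-14) and SHMT2 by -0.64 ± 0.07 (limma adjusted p = 1.85e-08). SYVN1 (-0.58 ± 0.07, limma adjusted p = 1.16e-07) and PPP1R15A (-0.45 ± 0.07, limma adjusted p = 1.12e-05) were also lower in BE(2)-C. The ATF4 probes disagreed here too: the brightest differed by 0.02 ± 0.07 and did not pass, a second was higher in BE(2)-C by 0.58 ± 0.06 (limma adjusted p = 9.06e-08), and the dimmest gave 0.07 without passing.

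**Figure D4:**
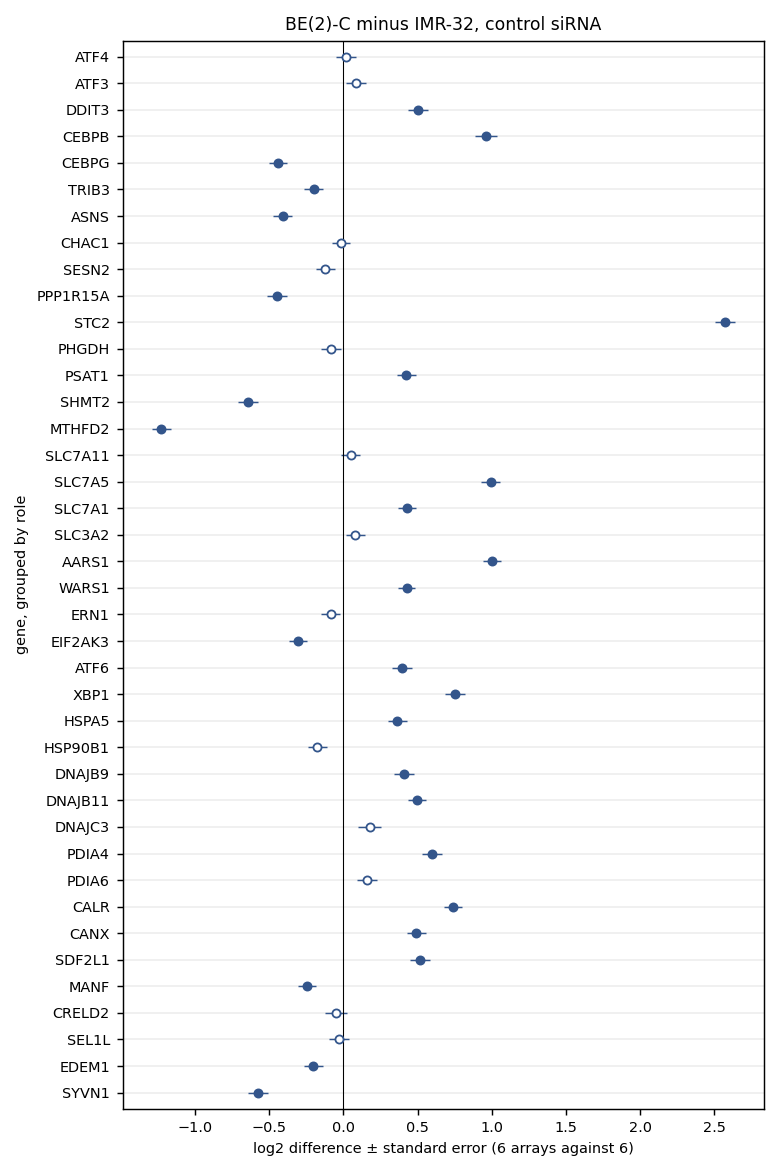
Difference in log2 signal between control BE(2)-C and control IMR-32 cells (horizontal axis, ± SE, 6 arrays against 6) for each of 40 genes (vertical axis), with filled points for adjusted p below 0.05. STC2 lies farthest right and MTHFD2 farthest left.

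At 42, 48 and 54 h, siRNA no. 1 gave 5, 3 and 7 members higher in BE(2)-C, beside 5.67%, 6.03% and 8.03% of all genes, and 4, 6 and 3 lower, beside 5.6%, 6.07% and 6.89%. For siRNA no. 2 there, 4, 1 and 3 members were higher (0.983%, 1.3% and 2.92% of all genes) and 3, 3 and 4 lower (1.65%, 2.18% and 3.23%). Among IMR-32 arrays, siRNA no. 1 gave 1, 3 and 3 higher (5.13%, 6.65% and 6.78%) and 4, 8 and 6 lower (4.88%, 6.14% and 6.49%). The other siRNA gave 0, 1 and 1 higher (0.778%, 1.37% and 2.32%) and 1, 3 and 4 lower (1.38%, 1.95% and 3.68%). SLC7A1 in BE(2)-C with siRNA no. 1 gave log2 fold changes of -0.82, -0.78 and -0.84, and PPP1R15A gave 0.79, 0.82 and 1.28. No gene's change in effect between 54 and 42 h passed in limma for either siRNA in either line, among the members or among all genes, and 2, 2, 1 and 2 of the 40 members had an unadjusted p below 0.05 (siRNA no. 1 and no. 2 in BE(2)-C, then in IMR-32). For PPP1R15A in BE(2)-C with siRNA no. 1, that change was 0.50 ± 0.17 (limma adjusted p = 0.916).

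In control BE(2)-C cells, 3 of 40 members were called lower at 54 h than at 42 h and 0 higher, beside 1.42% and 0.524% of all genes. This set 2 arrays against 2, and the 54 h pair had the lowest replicate correlation of all (r = 0.985). Whether time or another difference between these arrays lay behind it was not tested. SLC7A5 was at 10.93 and 11.01 at 54 h, against 11.71 and 11.44 at 42 h (-0.60 ± 0.12, limma adjusted p = 0.0331), HSP90B1 gave -0.60 ± 0.13 (limma adjusted p = 0.0416) and TRIB3 -0.55 ± 0.12 (limma adjusted p = 0.0499). All 3 calls were lost on leaving out any of 5 of the 6 arrays. In control IMR-32 cells no member passed in limma, and 2 had an unadjusted p below 0.05.

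When arrays were scaled to a common median instead of quantile normalized, several further calls were lost. In BE(2)-C these were ATF4 (-0.21, limma adjusted p = 0.0527), CEBPG (-0.20, limma adjusted p = 0.0553) and DNAJB9 (-0.30, limma adjusted p = 0.0528) with siRNA no. 1, and PSAT1 (0.26, limma adjusted p = 0.0603), MTHFD2 (0.22, limma adjusted p = 0.0508) and DNAJB9 (0.19, limma adjusted p = 0.164) with siRNA no. 2. SLC3A2 (0.21, limma adjusted p = 0.109) and MANF (-0.17, limma adjusted p = 0.128) were lost in IMR-32 with siRNA no. 2. SLC7A5, HSP90B1 and TRIB3 no longer passed between 54 and 42 h in control BE(2)-C cells (limma adjusted p = 0.0936, 0.13 and 0.0913 in turn). Background correction by normexp ended the BE(2)-C calls of CEBPG with siRNA no. 1 and of STC2 and HSPA5 with siRNA no. 2. It also ended the IMR-32 calls of CALR with siRNA no. 1 and of SLC3A2, HSP90B1 and MANF with siRNA no. 2.

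Neighbouring gene lists were counted in the same way. Of all genes, siRNA no. 1 gave 12.9% higher and 11.5% lower in BE(2)-C and 13.3% and 10.9% in IMR-32, and siRNA no. 2 gave 6.39% and 7.54%, then 6.02% and 7.28%. The median log2 fold change of the 6 lists below lay between -0.19 (cytosolic heat shock genes in IMR-32 with siRNA no. 1) and 0.18 (eIF2 kinases and factors in BE(2)-C with siRNA no. 2), beside -0.00 to 0.01 over all genes. Among 11 eIF2 kinases and factors, siRNA no. 1 gave 3 higher and 4 lower in BE(2)-C and 2 higher and 3 lower in IMR-32, while siRNA no. 2 gave 2 and then 4 higher and 0 lower. EIF2S1, the eIF2 subunit that carries the regulatory phosphate, was lower with siRNA no. 1 by -1.74 ± 0.07 in BE(2)-C (limma adjusted p = 1.49e-14) and -0.78 ± 0.06 in IMR-32 (limma adjusted p = 4.16e-12). With siRNA no. 2 it gave -0.15 (limma adjusted p = 0.296) and 0.16 (limma adjusted p = 0.0894). EIF2S2, the beta subunit, was lower with siRNA no. 1 too, by -0.93 and -0.56, and EIF2B2, a subunit of the exchange factor that reloads eIF2, was higher with siRNA no. 2 by 0.39 and 0.27.

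Of 21 other amino acid response genes measured, siRNA no. 1 gave 3 higher and 6 lower in BE(2)-C and 2 higher and 7 lower in IMR-32, and siRNA no. 2 gave 3 and 3 and then 1 and 3. DDIT4 (REDD1), an inhibitor of mTORC1, was higher with siRNA no. 1 by 0.53 in BE(2)-C and 1.02 in IMR-32. ATF5, a relative of ATF4, was higher in BE(2)-C with siRNA no. 2 (0.92) and lower in IMR-32 with siRNA no. 1 (-0.64), and PCK2, the mitochondrial PEPCK, was lower with siRNA no. 2 in both (-0.69 and -0.40). Of 16 other cytosolic tRNA synthetases, siRNA no. 1 gave 3 higher and 2 lower in BE(2)-C and 7 higher and 4 lower in IMR-32, and siRNA no. 2 gave 2 higher and 0 lower in each, with YARS1 lower with siRNA no. 1 (-0.40 and -0.28).

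Of 24 other ER folding and quality control genes, siRNA no. 1 gave 6 higher and 2 lower in BE(2)-C and 12 higher and 3 lower in IMR-32, and siRNA no. 2 gave 3 and 3 and then 3 and 1. TXNDC5, a disulfide isomerase, was lower with siRNA no. 1 by -0.76 in BE(2)-C and -0.46 in IMR-32, and DERL1, a channel component of ER-associated degradation, was higher in BE(2)-C with siRNA no. 1 by 0.57. CREB3L2, a membrane-bound transcription factor, was lower in BE(2)-C with siRNA no. 2 by -0.75. Among 12 cytosolic heat shock genes, siRNA no. 1 gave 1 higher against 2 lower in BE(2)-C and 0 against 5 in IMR-32, and the other siRNA gave 1 against 3 and then 0 against 4. Of 8 oxidative stress genes measured, siRNA no. 1 gave 1 higher and 3 lower and then 3 and 4, and siRNA no. 2 gave 1 and 0 and then 3 and 0. TXNRD1, thioredoxin reductase, was lower with siRNA no. 1 by -2.12 ± 0.09 in BE(2)-C and -1.17 ± 0.07 in IMR-32 (limma adjusted p = 1.29e-13 and 5.03e-14).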

How the data were processed

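Total RNA of 36 samples was hybridised to Illumina HumanHT-12 arrays. The authors deposited a non-normalized table of probe intensity values with a detection p-value for each probe and array. They also deposited a table of quantile-normalized values, which were log2 transformed here and served as an alternative. The software that summarised the beads is not given in the sources used here. Here, intensities were quantile normalized over 36 arrays without background correction, log2 transformed and, for each comparison, fitted in limma 3.58.1 (R 4.3.3) with 1 coefficient per siRNA and time point, the contrast being averaged over time points. Two-sided moderated tests were adjusted by Benjamini-Hochberg over 47320 probes, and calls were made at 0.05. Probes with blank cells were left out. A gene was read by its brightest probe over all arrays. A probe was above background at a detection p-value below 0.01 with a signal above the array's background centre. Python 3.11.15 drew the plots, and the fit was tested on simulated data.

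Named members were ATF4, DDIT3, XBP1, HSPA5, ERN1, EIF2AK3, ATF6, the 6 with the largest called change per comparison, those called alike across siRNAs or lines, the 4 with the largest difference per direction between siRNAs or lines, and those whose probes disagreed. SESN2 and SLC7A11, the genes listed as not called and those named only for a promoter element or a difference between lines were named after their values were seen. The members and lists were chosen with earlier results of these data known. Replicate numbers were not used to pair samples in the main fits. Correlations of replicate differences between groups ran from -0.0316 to 0.166, which cannot exclude that replicates were made in pairs.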

Additional observations from a re-analysis of the deposited data

Results flagged for a closer look

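No group had more than 2 arrays, so no test for an outlying array within a group was possible. The values below are differences between the cell lines in the effect of an siRNA (log2 fold change in BE(2)-C minus that in IMR-32, limma interaction over 36 arrays). They are listed because the interaction passed at adjusted p below 0.05.

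With siRNA no. 1, PSAT1 gave 0.81 ± 0.08 (SE, limma adjusted p = 1.07e-10), from 0.80 in BE(2)-C and -0.02 in IMR-32. PPP1R15A gave 0.56 ± 0.09 (limma adjusted p = 1.79e-05), with higher calls in both lines. PDIA6, a disulfide isomerase, gave 0.47 ± 0.09 (limma adjusted p = 0.000157), from a higher call of 0.29 in BE(2)-C and a lower call of -0.18 in IMR-32. STC2 gave 0.36 ± 0.10 (limma adjusted p = 0.00959), where the IMR-32 signal was not above background on 17 of the 18 arrays, so that the difference rests on BE(2)-C. ATF3 gave 0.35 ± 0.09 (limma adjusted p = 0.00523) and WARS1 0.27 ± 0.09 (limma adjusted p = 0.0433). AARS1 gave -0.39 ± 0.08 (limma adjusted p = 0.000974) and SLC7A1 -0.38 ± 0.09 (limma adjusted p = 0.00164).

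With siRNA no. 2, HSPA5 gave 0.58 ± 0.09 (limma adjusted p = 1.23e-05), from 0.26 in BE(2)-C and -0.33 in IMR-32. ATF3 gave 0.39 ± 0.09 (limma adjusted p = 0.00461), from 0.55 and 0.16. PDIA4 gave -0.39 ± 0.09 (limma adjusted p = 0.00561), SLC7A1 -0.30 ± 0.09 (limma adjusted p = 0.0387), DNAJB11, an HSPA5 co-chaperone, -0.30 ± 0.08 (limma adjusted p = 0.0316) and TRIB3 -0.29 ± 0.09 (limma adjusted p = 0.0469). The single calls of PDIA6 and DNAJB11 were not followed through other settings. The calls of WARS1 and TRIB3 were lost on leaving out any of 19 and 29 of the 36 arrays, and that of SLC7A1 with siRNA no. 2 on any of 14. Background correction by normexp ended the calls of STC2 and WARS1 with siRNA no. 1 and of TRIB3 and SLC7A1 with siRNA no. 2. Median scaling lost those of WARS1 (0.25, limma adjusted p = 0.132), ATF3 with siRNA no. 2 (0.31, limma adjusted p = 0.124) and TRIB3 (-0.30, limma adjusted p = 0.0814).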

How the results depend on the processing

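Counts of members are given as higher and lower. Requiring a call at 2 or more time points left 4 and 5 with siRNA no. 1 and 1 and 3 in BE(2)-C with siRNA no. 2, and 3 and 6 and then 0 and 2 in IMR-32. At adjusted p below 0.01, siRNA no. 1 in BE(2)-C gave 7 lower, the line difference for siRNA no. 2 gave 1 lower and the 54 h against 42 h comparison of BE(2)-C control cells gave 0 lower. Median scaling gave 5 higher in BE(2)-C with siRNA no. 2, 7 higher with siRNA no. 1 than with no. 2 in IMR-32, 1 higher in the line difference for siRNA no. 2 and 0 lower between 54 and 42 h. It cost 19 of 140 named calls. It also moved the share of calls that were higher over all genes, to 25.2% from 45.9% (siRNA no. 2, BE(2)-C; members 5 and 10), 30.1% from 45.3% (siRNA no. 2, IMR-32; members 4 and 8), 37.5% from 47.6% (control lines; members 16 and 13) and 11.6% from 27.0% (54 h against 42 h). Normalizing each line by itself gave 35.8% for the control lines (members 17 and 13). No scaling moved the median of all genes by over 0.1.

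One fit over 36 arrays gave 11 lower in BE(2)-C with siRNA no. 2 and 11 lower between 54 and 42 h. Filtering dim probes gave 5 lower in the line difference for siRNA no. 1, 4 higher in that for siRNA no. 2 and 0 lower over time. Background correction by normexp gave 1 lower in the line difference for siRNA no. 2 and 0 lower over time. Between 54 and 42 h there were also 5 lower with each line normalized alone, 5 lower with the replicate block, 1 lower with an intensity trend and robust prior and 1 higher with the probe of largest F. Against control cells, that probe had the largest smaller F of the 2 siRNAs, and was not always the one that changed most in a comparison. ATF4 in BE(2)-C was then read by its dimmest probe, which reversed to 0.10 with siRNA no. 1 (limma adjusted p = 0.419). Another ATF4 probe gave -0.36 there. Why the probes disagreed was not tested. The replicate block moved no other count by over 1.5 times.

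Leaving out 1 array at a time gave 9 to 10 higher and 8 to 13 lower (siRNA no. 1) and 8 to 11 and 6 to 9 (siRNA no. 2) in BE(2)-C, and 4 to 5 and 12 to 16 and then 5 to 7 and 6 to 8 in IMR-32. Between siRNAs it gave 11 to 13 and 9 to 10 in BE(2)-C and 4 to 6 and 9 to 12 in IMR-32, between control lines 17 to 18 and 8 to 11. The line difference gave 5 to 7 and 2 to 4 for siRNA no. 1, the 4 without BE(2)-C control 54 h replicate 1. For siRNA no. 2 it gave 2 to 4, the 4 without IMR-32 siRNA no. 2 54 h replicate 1, and 1 to 4 lower, with 1 or 2 lower without any of 16 arrays. Over time in control BE(2)-C cells it gave 0 higher and 0 to 8 lower, 8 without the 54 h replicate 2 and 0 without any of the other 5, and 0 in the other time comparisons. With 2 arrays per group, signal near background limits CHAC1, SLC7A11, ERN1, SEL1L and SESN2.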
